A study of Mus musculus with 22 samples.

Results

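Fos, Fosb, Jun, Junb, Jund, Egr1, Nr4a1, Nr4a2, Atf3 and Dusp1 are 10 genes of the immediate early and stress response, chosen by name as AP-1 components, the EGR and NR4A factors and an early feedback phosphatase. All 10 were found among the 52636 mouse gene identifiers of the count files, and all 10 passed the filter on low counts in every comparison. They were followed in 22 bulk RNA sequencing libraries of 6 groups. Libraries named RCAM came from aged and from young mice (n = 4 each), renal capsule macrophages and kidney macrophages gave 4 libraries each, and whole renal capsule, the thin fibrous sheath around the kidney, came from aged and from young mice (n = 3 each). No treatment is recorded for any group, and the labels give no strain, genotype, sex, age in weeks, batch, or age for the capsule and kidney macrophages. Whether replicates are separate animals is not labelled, so each p-value reflects the spread among these libraries alone, which may be technical.

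Immediate early genes are transcribed within minutes of a signal, without new protein synthesis, through MAP kinases that act on factors already bound at their promoters. Fos and Jun proteins pair as AP-1, Egr1 is a zinc finger factor, Nr4a1 and Nr4a2 are orphan nuclear receptors, Atf3 is a stress-induced relative of the AP-1 proteins, and Dusp1 removes the activating phosphates from MAP kinases and so limits the response. Enzymatic digestion and cell sorting are widely known to induce these genes in the cells being isolated, macrophages included. Levels in isolated cells were therefore set beside those in undissociated tissue, although isolation, cell type and library kit cannot be told apart in that comparison, because the labels name a regular-input and a low-input kit without saying which sample had which.

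Total counts were 31.8 to 54.4 M (1e6) in the 16 cell libraries and 20.6 to 43.2 M in the 6 tissue libraries. The labels call the RCAM libraries whole tissue, whereas the design text mentions macrophage sorting. Against the label, 15 macrophage markers summed to 40910 to 46110 counts per 1e6 (CPM) in aged and 42710 to 45590 CPM in young RCAM libraries, against 4911 to 11020 CPM in aged and 2311 to 4576 CPM in young capsule tissue. This sum was 38260 to 42520 CPM for capsule macrophages, above the 28120 to 30470 CPM of kidney macrophages. Itgam, which encodes the integrin CD11b, was the marker at 0 in all tissue libraries and reached at most 0.992 CPM in any library. Adipocyte markers summed to 197 to 394.6 CPM over all RCAM libraries and to 26110 to 64340 CPM over capsule tissue. Replicate 2 of aged capsule tissue held adrenal cortex transcripts, with a marker sum of 6701 CPM. The same sum was 206.5 CPM in replicate 2 of young capsule tissue and at most 24.68 CPM in the other tissue libraries.

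The members share features that the choice by name did not use. In the GENCODE M21 annotation of GRCm38, 8 of the 10 have at most 4 exons in their main coding transcript, against 34.0% of 21901 coding genes, and Jun, Junb and Jund have 1 exon each. Their 3' untranslated regions held a median of 3 copies of the pentamer ATTTA, the core of elements known to shorten mRNA life, against a median of 1 over all coding genes. At least 3 copies were present in 6 of the 10 members, namely Fos, Jun, Nr4a1, Nr4a2, Atf3 and Dusp1, against 30.3% of coding genes. These are matches of letters and not tested elements, and the copies were not scaled to length. The members' 3' untranslated regions ran from 485 bases (Junb) to 2145 bases (Fosb), against a median of 724 bases over all coding genes.

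RefSeq promoter sequences (build GRCm38.p6, 250 bases before the annotated start) were present for 9 members, all but Egr1. The start used for Jund, at base 70697739 of chromosome 8, lies before the GENCODE gene, which begins at 70698949. The window of Jund is thus not next to that gene. The starts used for Nr4a1 (101266846), Dusp1 (26508472) and Atf3 (191183333) lie inside the GENCODE gene spans. In the direction of transcription those spans begin at 101254269, 26562128 and 191218039. The windows of these 3 are thus not those before the outermost GENCODE start. The core of the cyclic AMP response element, which CREB and ATF proteins are known to bind, was searched as TGACG on both strands. It was found in 7 of the 9, namely Fos, Fosb, Junb, Nr4a1, Nr4a2, Atf3 and Dusp1, against 17.8% of 32851 promoters of the same length. Those promoters belong to 27025 genes, so some genes have several. The full element TGACGTCA, each copy of which counts as a core on both strands, was found only in Dusp1 among the 9, against 1.55% of all promoters. GC boxes, searched as GGGCGG, were found in 7 of the 9 against 32.7%, and EGR sites, searched as GCGNGGGCG and able to overlap a GC box, in Fosb, Nr4a1 and Nr4a2 against 4.7%. TATAAA was found in Fos and Nr4a2 against 12.4%. The AP-1 site TGANTCA was in none of the 9, against 6.75%, and the CArG box of serum response factor in none, against 1.47%, which says only that these letters are not in this window.

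The 200 bases before the annotated start are shown for Fos, Junb and Dusp1, which varied most closely together in these libraries, and for Nr4a1, which was lower in young RCAM libraries than in young tissue. They are Fos at chr12:85473690-85473889 on the plus strand, Junb at chr8:84978749-84978948 on the minus strand, Dusp1 at chr17:26508473-26508672 on the minus strand and Nr4a1 at chr15:101266646-101266845 on the plus strand. Each reads 5' to 3' in the direction of transcription, and capitals mark the core TGACG on either strand.
Fos: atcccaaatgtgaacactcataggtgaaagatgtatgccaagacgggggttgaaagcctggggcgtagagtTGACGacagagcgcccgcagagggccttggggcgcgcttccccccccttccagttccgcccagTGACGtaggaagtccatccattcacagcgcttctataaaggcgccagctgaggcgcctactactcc
Junb: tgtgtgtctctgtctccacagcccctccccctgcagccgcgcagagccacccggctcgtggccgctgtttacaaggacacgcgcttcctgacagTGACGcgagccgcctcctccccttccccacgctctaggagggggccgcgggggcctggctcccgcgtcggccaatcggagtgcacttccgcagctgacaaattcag
Dusp1: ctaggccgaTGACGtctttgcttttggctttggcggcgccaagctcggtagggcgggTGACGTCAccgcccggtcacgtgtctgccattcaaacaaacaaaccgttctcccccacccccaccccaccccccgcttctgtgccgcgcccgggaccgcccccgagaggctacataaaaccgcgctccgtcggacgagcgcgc
Nr4a1: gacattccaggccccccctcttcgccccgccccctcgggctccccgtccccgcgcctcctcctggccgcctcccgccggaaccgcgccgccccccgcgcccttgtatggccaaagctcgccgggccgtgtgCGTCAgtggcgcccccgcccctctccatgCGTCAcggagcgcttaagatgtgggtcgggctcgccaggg
Both copies in the Fos stretch, at 129 and 66 bases before the start, lie on the plus strand of the gene. Nr4a1 held 4 copies in its 250 bases, the nearest of them at 40 bases before the start, and Dusp1 held its full element at 143 to 136 bases.

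Of the 10 members, 6 had no overlap between the 16 cell libraries and the 6 tissue libraries, all with the cells higher. Over the 19485 genes that passed the filter in the 22 libraries, 18.7% were higher in the cells without overlap. The members were Fos, Jun, Junb, Jund, Egr1 and Dusp1. Levels are in CPM of the library total scaled by the trimmed mean of M-values (TMM). The separation of Egr1 depended on this scaling. With RLE scaling, an alternative, its level in aged tissue replicate 3 lay above those in kidney macrophage replicates 1 and 3.

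Fos, which encodes a short-lived protein and is the classic marker of recent activation, had 1668, 2189, 2018 and 2666 CPM in aged RCAM libraries and 2012, 1357, 1028 and 1201 CPM in young RCAM libraries. It had 1694, 1388, 1907 and 1974 CPM in capsule macrophages and 577.2, 831.1, 588.5 and 861.8 CPM in kidney macrophages. It had 8.542, 5.055 and 18.44 CPM in aged and 4.777, 3.6 and 4.802 CPM in young capsule tissue. The order of the group means was aged RCAM, capsule macrophages, young RCAM, kidney macrophages, aged tissue and young tissue, and the ranges of the first 3 overlapped while the other steps did not. Per kilobase of exon, Fos ranked 39th of 19485 genes in aged RCAM libraries (mean 908 CPM per kb) and 10370th in young capsule tissue (mean 1.87 CPM per kb).

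Jun, the main partner of Fos in AP-1, spanned 722.6 to 1453 CPM over the 16 cell libraries and 39.42 to 80.3 CPM over the 6 tissue libraries. The 4 cell groups overlapped as neighbours in the order of means, and so did aged and young tissue. Junb, a Jun protein also induced early, spanned 386.4 to 1299 CPM in cells and 12.37 to 37.45 CPM in tissue, and Dusp1 spanned 510.5 to 1288 CPM in cells and 24.61 to 55.21 CPM in tissue. Egr1 spanned 279.2 to 1321 CPM in cells and 17.28 to 267.1 CPM in tissue, so that its highest tissue library stood close below its lowest cell library. Jund, the Jun gene usually expressed without a stimulus, also lay close, with 85.06 to 201.7 CPM in cells and 47.02 to 61.48 CPM in tissue.

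The other 4 members overlapped between cells and tissue. Nr4a1 had its highest mean in kidney macrophages (347 ± 87.4 CPM, SD, n = 4) and its lowest in young RCAM libraries (39.83 ± 9.743 CPM, SD, n = 4), with young tissue, aged tissue, aged RCAM and capsule macrophages between them, in that order. Only the step from capsule macrophages to young RCAM was without overlap in that order. Atf3 was also highest in kidney macrophages, with 193.2, 256.4, 209 and 283.6 CPM, all above every other library. It had 9.514, 5.568 and 5.77 CPM in young capsule tissue. Fosb, a Fos protein that persists longer than Fos in its spliced form, stayed between 8.822 and 24.91 CPM in cells and between 1.62 and 23.58 CPM in tissue. Nr4a2 stayed between 5.112 and 22.43 CPM in cells and between 2.362 and 7.996 CPM in tissue.

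**Figure D1:**
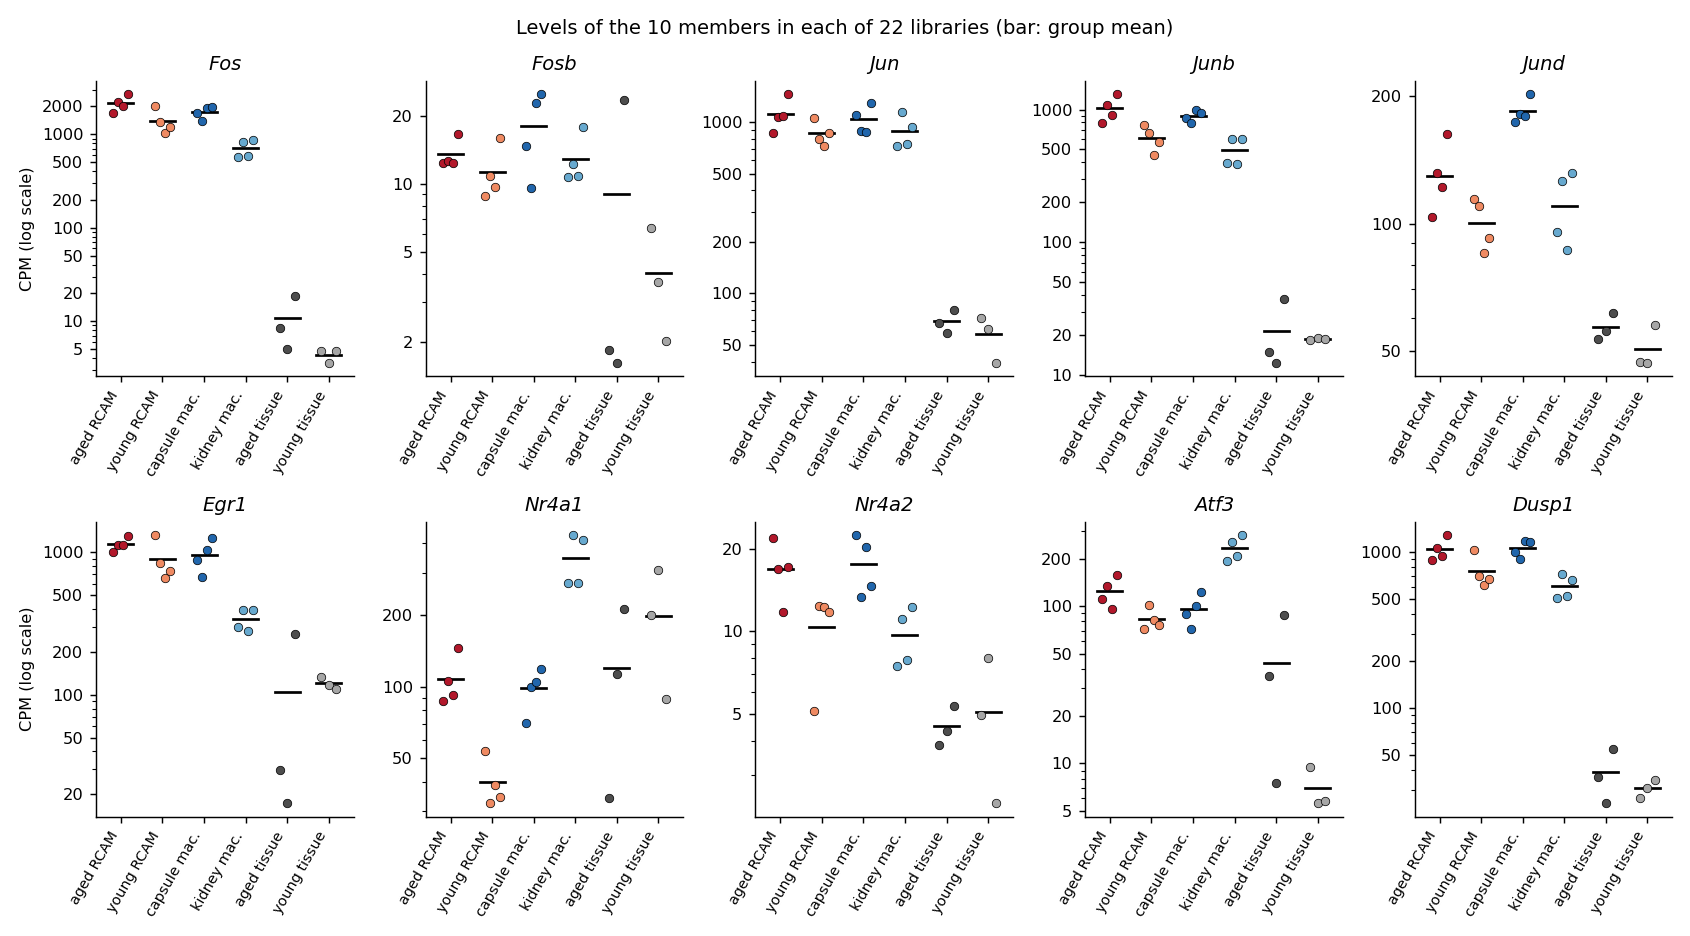
Level of each of the 10 members in CPM on a log axis, 1 point per library and a bar at the group mean, in 6 groups. Fos spans 577.2 to 2666 CPM in the 16 cell libraries and 3.6 to 18.44 CPM in the 6 tissue libraries, while Nr4a1 overlaps between them.

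The make-up of each family differed between cells and tissue when levels were taken per kilobase of exon. Among Fos, Fosb, Fosl1 and Fosl2, Fos made up 98.3 to 99.5% of the family in every cell library. In tissue it made up 17.6 to 33.8% in aged and 19.8 to 27.5% in young libraries, and Fosl2, which encodes the Fos-related protein FRA-2, made up 46.3 to 78.7% in aged and 66.9 to 71.7% in young libraries. The length-scaled levels of Fosl2 itself overlapped, at 1.63 to 6.06 CPM per kb in cells and 4.96 to 10.7 CPM per kb in tissue. Among the Jun genes, Jund made up 8.71 to 14.8% in cells, against 47.1 to 58.3% in aged and 48.0 to 62.9% in young tissue. Fos genes summed to 0.514 to 1.17 times the Jun genes in cells, against 0.214 to 0.296 times in aged and 0.135 to 0.169 times in young tissue. Among the Nr4a genes, Nr4a1 was the larger part everywhere, at 71.8 to 97.3% in cells and 84.7 to 96.2% in tissue.

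**Figure D2:**
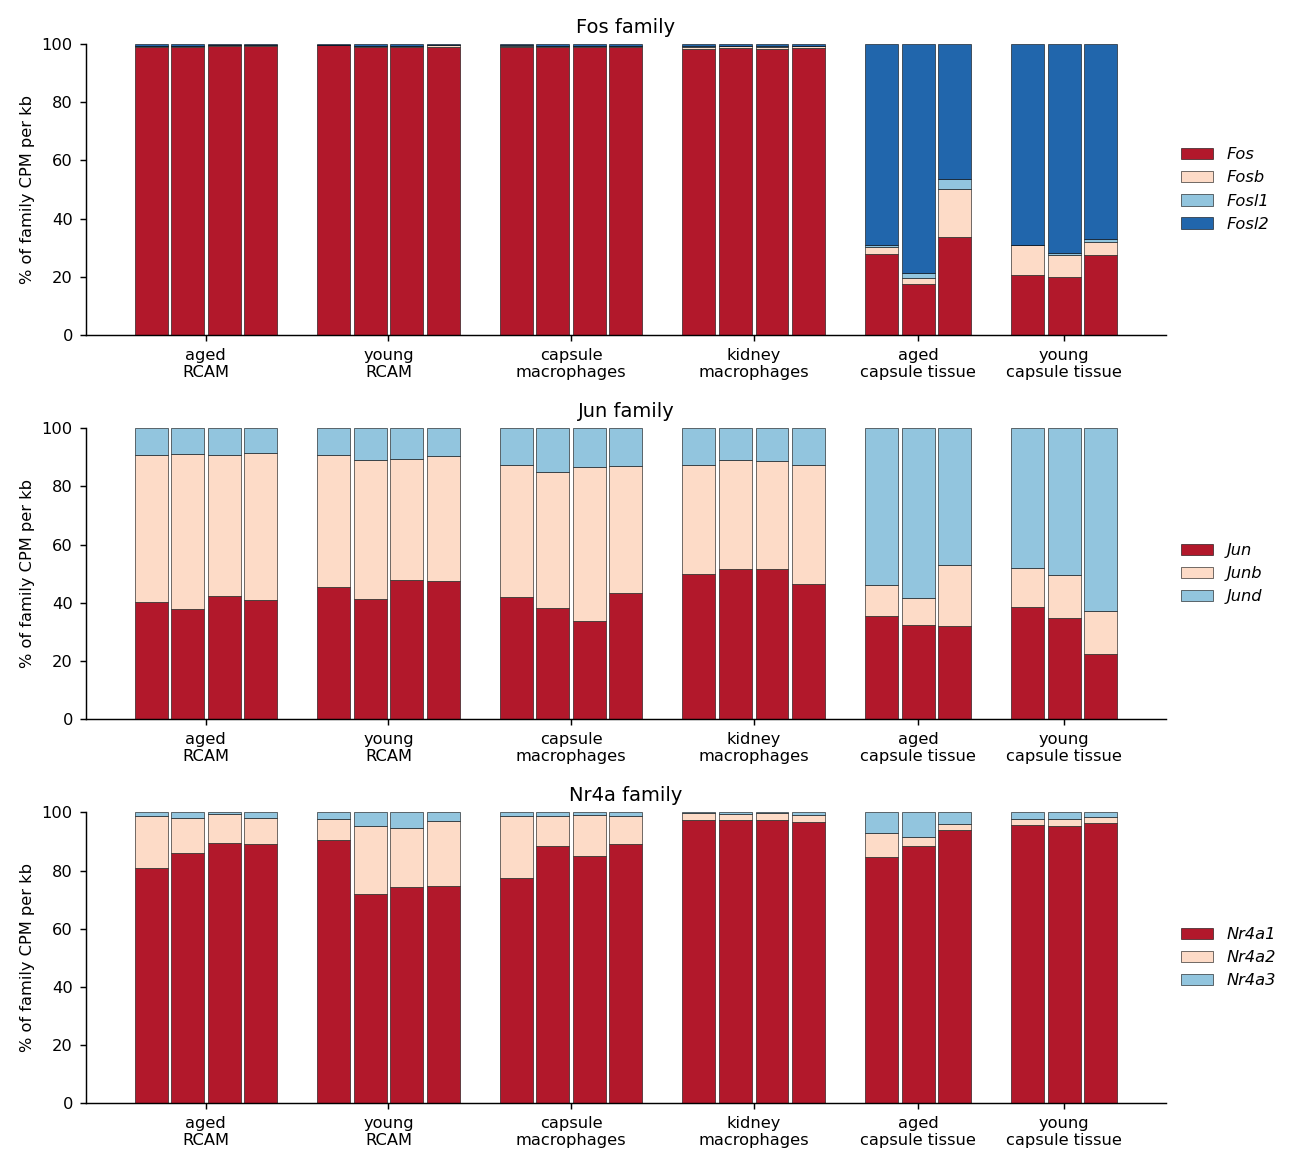
Share of each gene in the summed CPM per kb of its family (percent, stacked bars, 1 bar per library) for the Fos, Jun and Nr4a families. Fos fills 98.3 to 99.5% of its family in the cell libraries, whereas Fosl2 and Jund take the largest shares of their families in all 6 tissue libraries.

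In aged RCAM libraries against aged capsule tissue, 7 members rose, namely Fos, Jun, Junb, Jund, Egr1, Nr4a2 and Dusp1. Fos was 200-fold higher, with a log2 fold change of 7.65 ± 0.56 (SE, adjusted p = 8.14e-06), and ranked 84th of 17595 genes tested. Junb had a log2 fold change of 5.56 ± 0.50, Dusp1 of 4.77 ± 0.34, Jun of 4.04 ± 0.24 and Egr1 of 3.42 ± 0.92. Nr4a2 and Jund rose less, by 1.92 ± 0.27 and 1.20 ± 0.17. Fosb, Nr4a1 and Atf3 did not pass the threshold, with log2 fold changes of 0.56 ± 0.86, -0.17 ± 0.51 and 1.51 ± 0.67. Tests were edgeR's quasi-likelihood F test with Benjamini-Hochberg adjustment over all genes and a threshold of 0.05, which called 70.7% of all genes in this comparison, 32.2% as higher.

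Aged tissue replicate 3 was the highest of its group for all 10 members and set several of these values. Egr1 had 267.1 CPM there, against 29.64 and 17.28 CPM in the other 2 aged tissue libraries, Fosb had 23.58 against 1.842 and 1.62 CPM, and Atf3 had 87.77 against 36.19 and 7.46 CPM. Its macrophage marker sum was also the highest of the group, at 11020 CPM against 6425 and 4911 CPM. So was its proximal tubule sum, at 6655 CPM against 2259 and 1581 CPM. The erythroid, smooth muscle and pericyte, mast cell and lymphocyte sums were highest there too, and the adipocyte, endothelial and neutrophil sums lowest. The part of these cells in the members' levels was not tested. Without that library the log2 fold change of Fos was 8.34, of Junb 6.28 and of Egr1 5.66, and Fosb (3.01, adjusted p = 7.49e-05) and Atf3 (2.57, adjusted p = 0.00781) passed the threshold in edgeR's test.

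In young RCAM libraries against young capsule tissue, 8 members rose and Nr4a1 fell, where 35.2% of all genes rose and 40.6% fell. The log2 fold change was 8.20 ± 0.34 for Fos, 4.94 ± 0.21 for Junb, 4.52 ± 0.24 for Dusp1, 3.80 ± 0.25 for Jun, 3.48 ± 0.25 for Atf3 and 2.79 ± 0.25 for Egr1. Fosb rose by 1.39 ± 0.40 (adjusted p = 0.0128) and Jund by 0.88 ± 0.14 (adjusted p = 0.000629, edgeR). Nr4a1 had 53.91, 32.43, 38.67 and 34.31 CPM in young RCAM libraries, against 199.3, 307.8 and 88.65 CPM in young tissue. These ranges did not overlap, and the log2 fold change was -2.41 ± 0.37 (adjusted p = 0.000407, edgeR). Nr4a2 did not pass, at 0.93 ± 0.46, but did so without young RCAM replicate 1 (1.19, adjusted p = 0.0304) and without young tissue replicate 2 (1.40, adjusted p = 0.0303). In either direction the test called 75.9% of all genes.

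The RCAM libraries also hold far more macrophage RNA than tissue, and in bulk samples a change in the number of cells of a type and a change in RNA per cell cannot be told apart. The 14 macrophage markers other than Itgam had log2 fold changes of 3.13 (Mertk) to 4.80 (Csf1r) with a median of 4.0 in the young comparison, and of 2.04 (Mertk) to 4.35 (Cd14) with a median of 2.96 in the aged one. Fos and Junb lay above every one of these 14 markers in both comparisons, and Dusp1 did so in the aged one. Itgam, left out because it stayed under 2 CPM in every library, had log2 fold changes of 8.11 in the young and 8.26 in the aged comparison. Of the members only Fos, in the young comparison, was above Itgam. Fosb, Jund, Nr4a1 and Nr4a2 lay below every marker in both, Egr1 in the young comparison and Atf3 in the aged one. Jun lay within the markers' range both times. Whether a member lies above or below the markers was read from the estimates and not tested.

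Set per 1000 CPM of the summed macrophage markers of the same library, Fos had 34.5 to 60.5 CPM in aged RCAM, 22.6 to 37.6 in young RCAM, 30.5 to 46.9 in capsule macrophages and 22.5 to 30.0 in kidney macrophages, against 1.12 to 1.93 in aged and 1.22 to 1.75 in young tissue. On this scale the lowest cell library was thus above every tissue library for Fos, and the same held for Junb, with 10 to 29.5 in cells and 2.64 to 9.17 in tissue. Dusp1 and Jun overlapped on this scale, with 13.5 to 29.2 in cells against 5.47 to 15.1 in tissue for Dusp1, and 16 to 41.5 in cells against 8.42 to 30.0 in tissue for Jun. Jund lay lower in cells, at 1.87 to 4.7, than in tissue, at 6.45 to 22.8. Nr4a2 did so too, at 0.0955 to 0.504 in cells against 0.559 to 3.88 in tissue. Egr1, Fosb and Atf3 overlapped between cells and tissue. Between the young groups alone, Egr1 had 14.6 to 24.7 in RCAM libraries, below the 28.1 to 57.0 of tissue. Nr4a1 had 0.682 to 15.6 in cells and 6.05 to 149 in tissue. Other cells of the tissue can also express these genes, and this scale does not separate them.

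**Figure D3:**
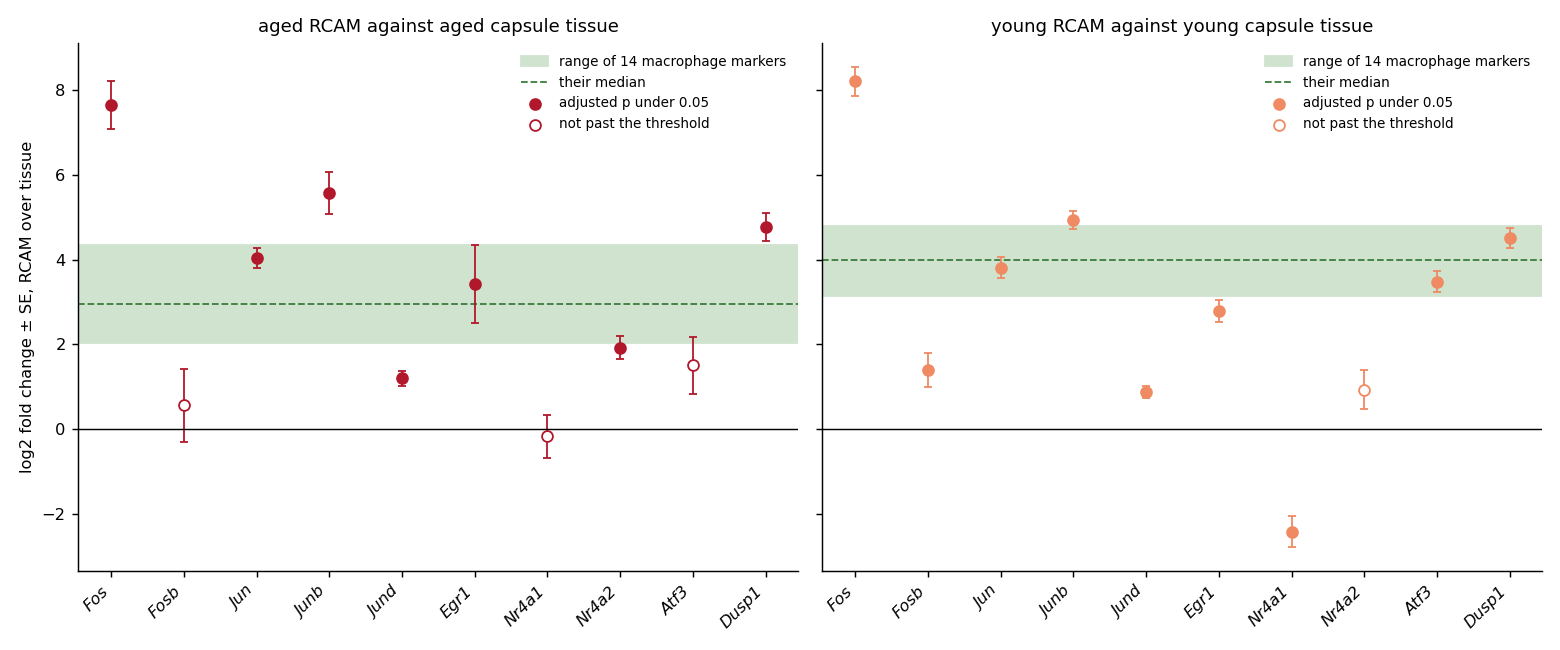
Log2 fold change with its standard error of the 10 members in aged RCAM over aged tissue (left) and young RCAM over young tissue (right), with filled points past an adjusted p of 0.05, and the range and median of 14 macrophage markers as a green band and dashed line. Fos at 7.65 and 8.20 lies above the band in both panels, and Nr4a1 lies below it. Itgam is not part of the band.

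Among other immediate early genes, a list of 35 including Egr2, Ier2, Btg2 and Zfp36, 24 of 34 tested rose and 8 fell in aged RCAM libraries against tissue, with a median log2 fold change of 1.58 against -0.16 over all genes tested. In the young comparison 23 of 34 rose and 8 fell, with a median of 1.99 against -0.14. Zfp36, whose protein binds AU-rich elements and speeds mRNA decay, rose by 4.09 ± 0.19 in the aged comparison, and its relative Zfp36l1 fell by 4.15 ± 0.15 in the young one. Heat shock genes, often induced beside immediate early genes by stress, were mixed, with 6 of 17 higher and 3 lower in the aged comparison and 6 higher and 4 lower in the young one. Hspa1a and Hspa1b, the inducible HSP70 genes, were among those that rose, by 4.66 ± 0.40 for Hspa1a in the young and 4.88 ± 0.53 for Hspa1b in the aged comparison. These 2 genes are nearly identical, so the split of reads between them is uncertain. Of 16 dual-specificity phosphatase and Sprouty feedback genes other than Dusp1, 5 rose and 11 fell in each comparison. The smallest p in both belonged to Dusp7, which rose by 2.70 ± 0.19 in the aged and 3.29 ± 0.18 in the young comparison, and Dusp6 rose by 2.86 ± 0.23 in the young one. Spry2 (-6.46 ± 0.36) in the young and Spry4 (-4.08 ± 0.34) in the aged comparison were among those that fell. Inflammatory early response genes rose in 13 of 19 cases and fell in 2 in the aged comparison, and rose in 17 and fell in 1 in the young one. Il1b, which encodes interleukin 1 beta, rose by 5.09 ± 0.38 in the aged comparison.

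Among the remaining lists, other AP-1 and bZIP genes rose in 13 of 22 cases and fell in 4 in the aged comparison, and in 12 and 4 cases in the young one. Atf5, a stress-linked bZIP gene, fell by 6.96 ± 0.17 in the aged and 6.87 ± 0.18 in the young comparison. Upstream kinases and serum response factors rose in 13 of 22 cases and fell in 7 in both comparisons. Integrated stress response genes fell in 8 of 12 cases in both, and rose in 2 cases in the aged and 3 in the young comparison. NR4A and EGR cofactors rose in 3 of 8 cases and fell in 2 in the aged comparison, and rose in 4 and fell in 1 in the young one.

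Capsule macrophages had more RNA of 6 members than kidney macrophages and less of 2, where 27.3% of all genes rose and 28.2% fell. Both kinds of cell were isolated, so this comparison is between cells and does not involve undissociated tissue. Egr1 had 881.9, 669.8, 1039 and 1265 CPM in capsule macrophages, against 298.7, 393.5, 279.2 and 391.6 CPM in kidney macrophages, and its log2 fold change was 1.51 ± 0.19 (adjusted p = 7.38e-05, edgeR). Fos followed with 1.29 ± 0.16, Nr4a2 with 0.87 ± 0.22, Junb with 0.86 ± 0.16, Dusp1 with 0.82 ± 0.13 and Jund with 0.75 ± 0.13. The ranges of these 6 did not overlap between the groups, as for 21.1% of all genes on the higher side.

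Nr4a1 and Atf3 went the other way. Nr4a1 had 70.36, 99.39, 104.8 and 118.9 CPM in capsule macrophages, against 271.7, 431.6, 271.5 and 413.2 CPM in kidney macrophages, a log2 fold change of -1.81 ± 0.20. Atf3 had 88.84, 72.1, 100.4 and 123.7 CPM in capsule macrophages, against 193.2, 256.4, 209 and 283.6 CPM in kidney macrophages, a log2 fold change of -1.28 ± 0.17 (adjusted p = 0.000113, edgeR). Jun (0.23 ± 0.17) and Fosb (0.49 ± 0.29) did not pass, and Fosb passed without capsule macrophage replicate 2 (0.70, adjusted p = 0.0292). The 8 calls held without each library in turn. The test called 55.4% of all genes here.

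Of the 14 macrophage markers other than Itgam, 11 were called higher and 2 lower in capsule macrophages. Their median log2 fold change was 0.7. Per 1000 CPM of summed macrophage markers, Junb, Jund, Nr4a2 and Dusp1 overlapped between capsule and kidney macrophages. Fos (30.5 to 46.9 against 22.5 to 30.0) and Egr1 (14.7 to 29.5 against 10.7 to 14.2) stayed higher without overlap. Nr4a1 and Atf3 stayed lower without overlap. The part of macrophage content was not tested. The 2 sources also differed in other cells. Proximal tubule markers (12) summed to 161 to 359.6 CPM in capsule, against 2102 to 3349 CPM in kidney macrophages, and fibroblast markers (10) to 1542 to 2270 CPM in capsule, against 702.1 to 833.7 CPM in kidney macrophages, with 11 of 12 called lower and 10 of 10 called higher. Their part in the members' differences was not tested. Among other immediate early genes, 17 of 33 rose and 7 fell, with Plk2 (2.99 ± 0.14) and Klf2 (2.32 ± 0.17) higher and Plk3 (-1.48 ± 0.12) lower in capsule macrophages. Inflammatory early response genes rose in 6 of 18 cases and fell in 8, and Il1b fell by 3.29 ± 0.10. The median log2 fold change was 0.78 over the 10 members and -0.03 over all genes tested.

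The labels give renal capsule as the tissue of young RCAM libraries and of capsule macrophages. All 10 members had lower estimates in young RCAM libraries. Those past the threshold were 3, namely Nr4a1 (-1.31 ± 0.19, adjusted p = 0.0022), Jund (-0.88 ± 0.10, adjusted p = 0.000993) and Junb (-0.55 ± 0.14, adjusted p = 0.0296) in edgeR's test, which called 13.5% of all genes, 5.39% as lower. Jund had 114.2, 110, 85.06 and 92.53 CPM in young RCAM libraries, against 173.5, 181, 179.3 and 201.7 CPM in capsule macrophages. The other 7 had log2 fold changes of -0.78 ± 0.28 (Nr4a2) to -0.12 ± 0.23 (Egr1). The call of Junb was lost without young RCAM replicate 3 (-0.43, adjusted p = 0.0537) or 4 (-0.51, adjusted p = 0.0817) and without capsule macrophage replicate 1 (-0.57, adjusted p = 0.0544), 3 (-0.50, adjusted p = 0.0768) or 4 (-0.53, adjusted p = 0.0721). Calls of Fos (-0.54, adjusted p = 0.0366) and Dusp1 (-0.68, adjusted p = 0.00754) were gained without young RCAM replicate 1, and of Fosb (-0.88, adjusted p = 0.0436) and Dusp1 (-0.56, adjusted p = 0.0497) without capsule macrophage replicate 2. Among other immediate early genes, 8 of 33 fell, including Gadd45b (-0.95 ± 0.13) and Nfkbia (-0.74 ± 0.10). The fibroblast markers summed to 1312 to 1480 CPM in young RCAM libraries, against 1542 to 2270 CPM for capsule macrophages, without overlap, and 3 of the 10 were called lower and 1 higher. Their part in the members' differences was not tested. The labels give no age for capsule macrophages.

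**Figure D4:**
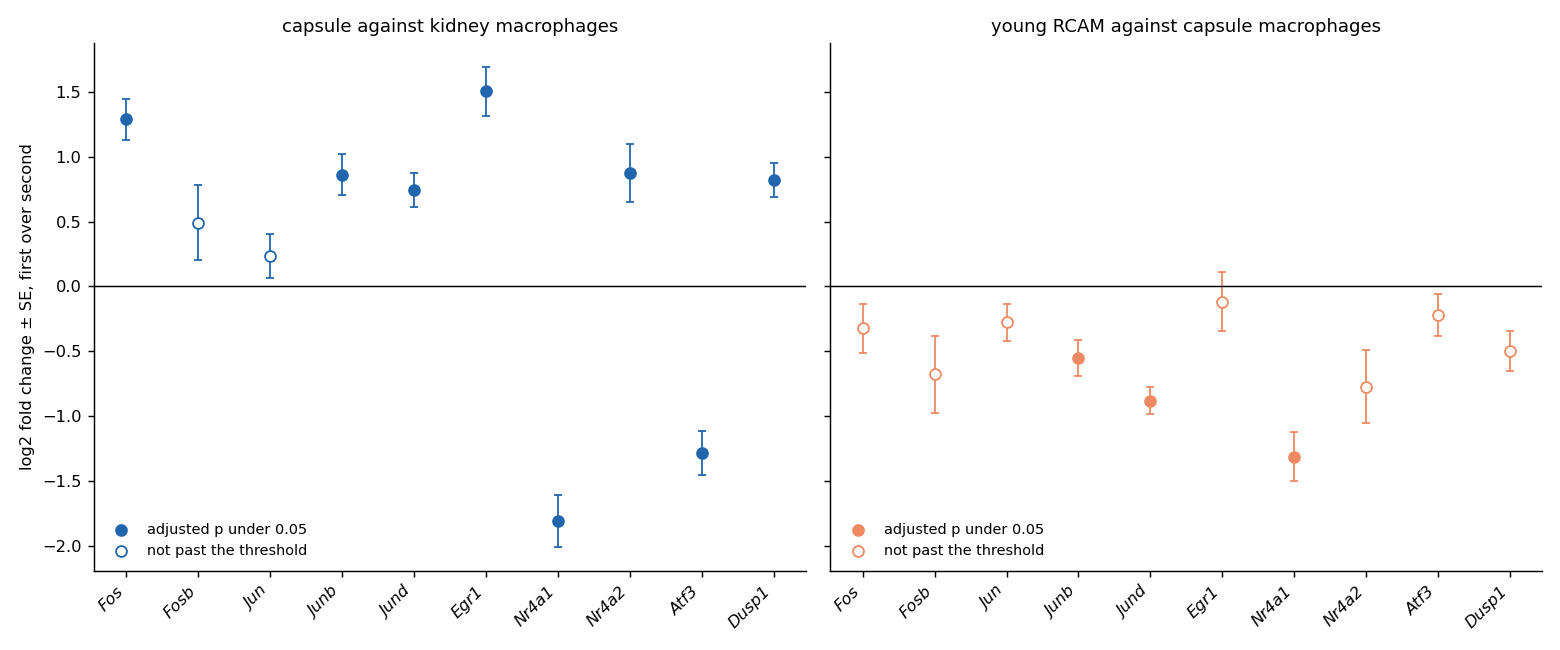
Log2 fold change with its standard error of the 10 members in capsule over kidney macrophages (left) and in young RCAM over capsule macrophages (right), with filled points past an adjusted p of 0.05. Nr4a1 at -1.81 and Atf3 at -1.28 lie below 0 on the left, where the 6 members that rose lie at 0.75 to 1.51, and on the right all 10 estimates lie below 0.

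In aged against young RCAM libraries all 10 members had positive estimates, and 2 passed the threshold. The test called 4.8% of all genes, and 3.43% as higher. Nr4a1 had 87.01, 105.1, 92.27 and 144.6 CPM in aged RCAM libraries, against 53.91, 32.43, 38.67 and 34.31 CPM in young ones, and rose 2.7-fold (log2 1.44 ± 0.20, adjusted p = 0.00379, edgeR). Every aged library was above every young one, and the call held without each library in turn, but not in a fit over all 22 libraries (adjusted p = 0.0524). Junb had 788.1, 1089, 905.2 and 1299 CPM in aged RCAM libraries, against 765.4, 665.3, 456.2 and 567.1 CPM in young ones (log2 0.74 ± 0.18, adjusted p = 0.0487). Its ranges did not overlap either, although the lowest aged library stood only a little above the highest young one, and 5.64% of all genes had higher ranges without overlap.

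The call of Junb was lost without aged RCAM replicate 2 (0.71, adjusted p = 0.0992), 3 (0.79, adjusted p = 0.0683) or 4 (0.60, adjusted p = 0.113) and without young RCAM replicate 2 (0.79, adjusted p = 0.0802), 3 (0.63, adjusted p = 0.0989) or 4 (0.71, adjusted p = 0.122), each by edgeR's test. The remaining 8 members had log2 fold changes of 0.26 ± 0.20 (Fosb) to 0.71 ± 0.28 (Nr4a2), and 8 of the 10 had an unadjusted p under 0.05 in edgeR's test, as did 17.4% of all genes tested. Their median was 0.53, against -0.01 over all genes tested. Young RCAM replicate 1 was the highest of its group for Fos, Jun, Junb, Jund, Egr1, Nr4a1 and Dusp1 and the lowest for Fosb, Nr4a2 and Atf3. Without it Fos (0.84, adjusted p = 0.0246), Egr1 (0.61, adjusted p = 0.0218) and Dusp1 (0.67, adjusted p = 0.0263) passed as well, and without aged RCAM replicate 3 Atf3 did (0.70, adjusted p = 0.0411).

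Markers of other cells moved with age in the same libraries. Fibroblast markers summed to 2047 to 4709 CPM in aged and 1312 to 1480 CPM in young RCAM libraries, with 6 of 10 called higher. Endothelial markers summed to 98.42 to 165.9 CPM in aged and 76.99 to 89.16 CPM in young libraries, and lymphocyte markers to 71.52 to 102 CPM in aged and 39.08 to 59.54 CPM in young ones, with 2 of 9 and 2 of 7 tested genes called higher. The part of these cells in the members' levels was not tested. Macrophage markers had a median log2 fold change of 0.01, with Cd163 (-0.76) the 1 marker called lower, and all 10 members had higher estimates than any of the 14.

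In the related gene lists a minority of the genes tested passed the threshold with age in RCAM libraries. Other immediate early genes rose in 7 of 33 cases, with the smallest p for Sgk1 (0.81 ± 0.11), Tnfaip3 (0.70 ± 0.10) and Nfkbia (0.50 ± 0.08), of which Tnfaip3 and Nfkbia encode inhibitors of NF-kB. Dual-specificity phosphatase and Sprouty genes rose in 3 of 16 cases, namely Dusp5 (1.07 ± 0.16), Spry1 (1.68 ± 0.29) and Dusp2 (1.55 ± 0.28), and fell in 1. Other AP-1 and bZIP genes rose in 3 of 22 cases, namely Cebpb (1.05 ± 0.21), Fosl2 (0.69 ± 0.15) and Jdp2 (0.51 ± 0.11). Il1b (1.16 ± 0.17) and Osm (0.80 ± 0.18) rose among 18 inflammatory genes, and Phgdh (2.06 ± 0.43) among 11 integrated stress response genes. The level of Phgdh was low, with means of 0.733 CPM in aged and 0.174 CPM in young RCAM libraries. In capsule tissue its means were 8.86 CPM in aged and 8.22 CPM in young libraries.

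In aged against young capsule tissue 0 members passed the threshold in edgeR's test, which called 0.239% of all genes. DESeq2 also called 0 members, but it gave no p for Egr1, which was thus not tested there. In edgeR's test 2 members, Fos and Atf3, had an unadjusted p under 0.05, as did 22.5% of all genes tested. Fos was higher in every aged than in every young library, with a log2 fold change of 1.16 ± 0.48 (adjusted p = 0.203). Among all genes 19.1% were higher without overlap in this comparison. Atf3 had the largest estimate, 2.56 ± 0.77 (adjusted p = 0.118), with 36.19, 7.46 and 87.77 CPM in aged and 9.514, 5.568 and 5.77 CPM in young tissue. It passed without aged tissue replicate 2 (3.06, adjusted p = 0.0326), the library with the adrenal transcripts.

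Egr1 had 29.64, 17.28 and 267.1 CPM in aged tissue, against 132.6, 117.4 and 110.5 CPM in young tissue (log2 -0.27 ± 0.91). Without aged tissue replicate 3 its log2 fold change was -2.56 (adjusted p = 0.0456, edgeR), past the threshold on the lower side. Nr4a1 was at -0.83 ± 0.67 and the other 6 members between -0.32 ± 0.43 (Nr4a2) and 1.10 ± 1.03 (Fosb). The 14 macrophage markers tested had a median log2 fold change of 0.90 here. Proximal tubule markers summed to 1581 to 6655 CPM in aged tissue, against 6934 to 26080 CPM in young tissue, and lymphocyte markers to 119.9 to 157.7 CPM in aged tissue, against 31.62 to 51.74 CPM in young tissue. Neither sum overlapped between the ages, and of 12 markers each, 0 proximal tubule markers and 1 lymphocyte marker passed edgeR's test. Their part in the members' values was not tested.

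The age effect in RCAM libraries minus that in capsule tissue was tested as an interaction, which asks whether the age effect itself differs. Of the members 0 passed, against 5.05% of all genes called, and 2, Nr4a1 and Atf3, had an unadjusted p under 0.05, as did 22.4% of all genes tested. DESeq2 called 1, Nr4a1 (adjusted p = 0.0132). The difference for Nr4a1 was 2.31 ± 0.72 (adjusted p = 0.0752), and the 2 age effects were 1.44 ± 0.20 in RCAM libraries and -0.83 ± 0.67 in tissue. For Atf3 it was -1.93 ± 0.77 (adjusted p = 0.157), with age effects of 0.59 ± 0.16 and 2.56 ± 0.77. Without aged tissue replicate 3, Junb (1.43, adjusted p = 0.0144), Egr1 (2.96, adjusted p = 0.00276) and Nr4a1 (3.09, adjusted p = 0.0195) passed, and without aged tissue replicate 2 Atf3 did (-2.43, adjusted p = 0.0213), all by edgeR's test.

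**Figure D5:**
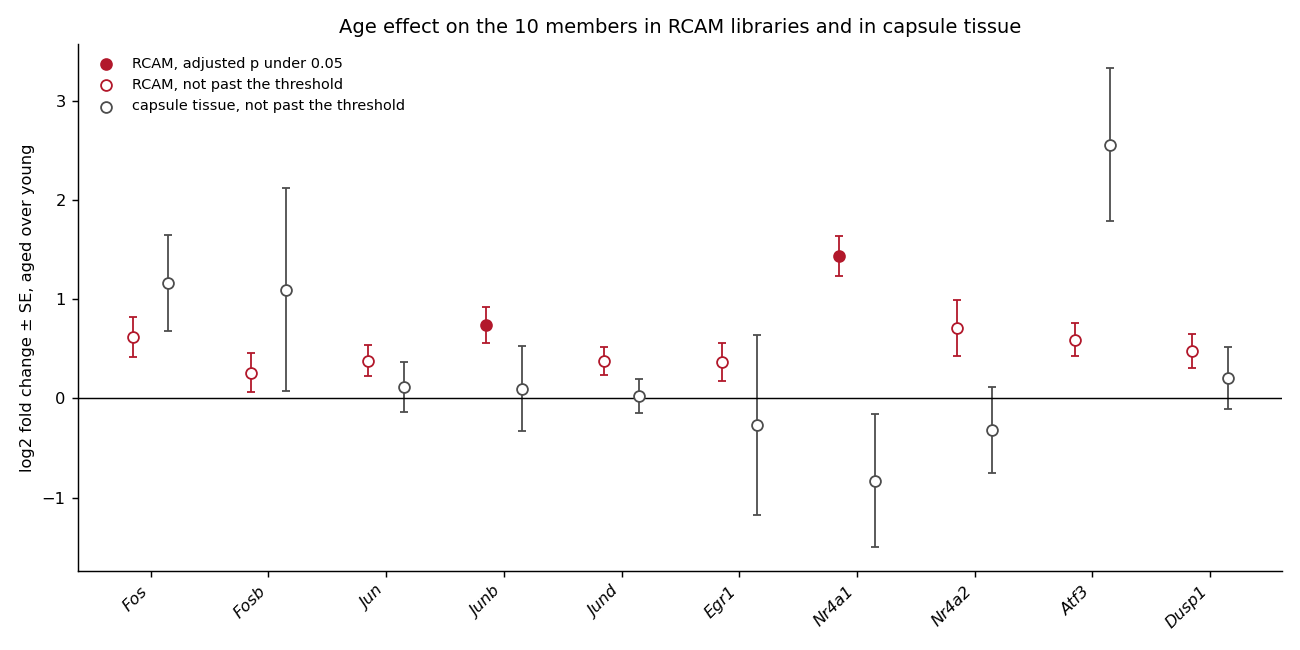
Log2 fold change of aged over young with its standard error for the 10 members in RCAM libraries (red, left point of each pair) and capsule tissue (grey, right point), filled where the adjusted p was under 0.05. All 10 red points lie above 0, with Nr4a1 (1.44) and Junb (0.74) filled, and the grey points spread from -0.83 to 2.56 with wide errors.

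Within groups most members varied together from library to library, and over the 22 libraries pooled Nr4a2 did so least. After the mean of each group was subtracted from log2 CPM, Fos correlated with Junb at Pearson's r = 0.936, with Dusp1 at 0.933 and with Egr1 at 0.898 over the 22 libraries, and the median over the 45 pairs of members was 0.557. Nr4a2 was the least linked in the pooled libraries, from -0.174 with Jund to 0.384 with Fosb. Cells and tissue differed in this. Nr4a2 correlated with Jun at -0.159 in the 16 cell and 0.769 in the 6 tissue libraries, and with Jund at -0.054 and -0.628. Fos correlated with Nr4a1 at 0.764 in cells and 0.244 in tissue, but with Junb at 0.942 and 0.932. These values describe libraries that share their scaling and carry no test. In aged RCAM replicate 4, 9 members were the highest of the group, and in capsule macrophage replicate 4, 7 were. In kidney macrophages replicates 2 and 4 held the highest value of 5 members each.

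Of 8979 genes whose log2 CPM averaged 3 or more, those closest to the mean of the 10 members within groups were Egr2 (r = 0.924), Btg2 (0.891), Ier2 (0.885), Sertad1 (0.873), Ckb (0.828), Mcl1 (0.824), Myc (0.817) and Ccn1 (0.799), over the 22 libraries. Egr2, Btg2, Ier2, Mcl1, Myc and Ccn1 are in the list of other immediate early genes. Across the 6 group means the closest were Pdcd7, Bloc1s4, Zfp64, Tbc1d8, Bap1, Nelfcd, Ess2 and Zfp36, at r = 0.996 to 0.998, of which Zfp36 is in that list. These r rest on 6 points, so a gene with a similar step between cells and tissue can reach a high r. They carry no test.

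Summed, the 10 members took 5125 to 7905 CPM of all counts in aged RCAM, 3494 to 5494 CPM in young RCAM, 4699 to 6573 CPM for capsule and 3402 to 4764 CPM for kidney macrophages, against 326.9 to 979.8 CPM in aged and 424.2 to 678.7 CPM in young tissue. Fos gave 18.3 to 31.5% of this sum in cells and 0.595 to 2.99% in tissue. Nr4a1 gave 0.699 to 9.6% in cells and 11.9 to 50.9% in tissue, and was the largest member in 3 of the 6 tissue libraries.

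Some values carry a limit from counting. Whether counting used strand is not given in the sources used here. The gene span of Junb shares 351 bases with that of Prdx2, and Dusp1 shares 640 with Ergic1, both on the opposite strand. Overlap of exons was not computed, so whether reads of these pairs can be told apart is not known. Over the 22 libraries Junb had 534737 and Prdx2 55792 counts, and Dusp1 had 617945 and Ergic1 127608. The least counted member in any library was Fosb with 52 counts, which limits the precision of Fosb, Nr4a2 and Fos in tissue.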

How the data were processed

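Bulk RNA was sequenced from 22 libraries in 6 groups taken from the labels. The authors deposited raw read counts per Ensembl mouse gene, 1 file per library, and the build GRCm38 is named in the submitters' processing notes, while the sources used here give no aligner, counter or use of strand. Of 52636 identifiers, 52489 were found in the GENCODE M21 annotation used here for names, exon lengths and overlaps. Each comparison was fitted with edgeR 4.0.16 (quasi-likelihood F test, trimmed mean of M-values, filterByExpr, R 4.3.3), using the libraries of its groups and no covariate, with Benjamini-Hochberg adjustment over all genes at 0.05. The scripts were tested on simulated data first. Levels are counts per 1e6 (CPM) after scaling over the 22 libraries. DESeq2 1.42.0, other scalings, no filter, a fit over all libraries, a replicate block and leaving out libraries were alternatives. No pair of replicates agreed within sampling noise. Members and gene lists were chosen with earlier results of these data known. From each list up to 3 called genes with the smallest p are named, and genes most like the members by correlation with their mean. A gene that this rule names is not reported here. Fosl1, Fosl2 and Nr4a3 enter the family shares only.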

Additional observations from a re-analysis of the deposited data

Results flagged for a closer look

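Of the 40 groups of 4 libraries tested with Dixon's criterion, 1 for each member in each of the 4 cell groups, 2 held a library that stood apart, and chance alone flags about 1 in 20 groups. Fosb had 16.63 CPM in aged RCAM replicate 4, against 12.37 to 12.67 CPM in the other 3 libraries of the group. That library was also the highest of its group for 9 of the 10 members. Nr4a2 had 5.112 CPM in young RCAM replicate 1, against 11.81 to 12.35 CPM in the other 3 libraries. That library was the highest of its group for 7 members, and its erythroid marker sum was 285.9 CPM, against 12.95 to 41.75 CPM in the other 3. The part of this in the value of Nr4a2 was not tested.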

How the results depend on the processing

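Of 1040 log2 fold changes of members under alternatives, 967 kept direction and side of the threshold, 16 lost and 35 gained a call, and 22 changed sign, none of these under another scaling. The cause was not tested. A value without a p, such as Egr1 by DESeq2 in aged against young tissue, was counted as not called. In aged against young tissue, where 0 members were called, 1 was called without the filter on low counts, 2 in a fit of all 22 libraries, 1 without the capsule tissue libraries numbered 2, and 0 to 1 without single libraries. Signs turned there with the replicate block for Fosb (-0.2176) and Junb (-0.1238), and without those numbered 2 for Egr1 (0.2135) and Nr4a2 (0.2214). They turned without single libraries for Fosb (-1.4092 to 1.6024), Jun (-0.0711 to 0.2931), Junb (-0.6558 to 0.3932), Jund (-0.0906 to 0.159), Egr1 (-2.5618 to 0.2438), Nr4a2 (-0.6415 to 0.1425) and Dusp1 (-0.2154 to 0.4613), negative for Fosb, Junb and Dusp1 without aged replicate 3. In RCAM libraries the 2 members called with age became 4 by DESeq2, 0 in the fit of all 22, 1 with the block, and 1 to 5 without single libraries. In young RCAM against capsule macrophages 3 became 5 by DESeq2 and 2 to 5 without single libraries, Junb lost its call in the fit of all 22 (adjusted p = 0.212, edgeR), and Egr1 ran from -0.3589 to 0.0397 without single libraries. In aged RCAM against aged tissue Nr4a1 turned to 0.0202 with the block and ran from -0.6123 to 0.5827 without single libraries. In the interaction 0 became 1 by DESeq2, 2 in the fit of all 22, 1 without those numbered 2, and 0 to 3 without single libraries, while without single libraries Fos ran from -0.8553 to 0.229 and Fosb from -1.3664 to 1.7073, both positive without aged tissue replicate 3, and Dusp1 turned to -0.0329 without those numbered 2.

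Counts over all genes moved by over 1.5 times in aged against young tissue (39, against 1789 by DESeq2, 1095 without the filter, 3097 in the fit of all 22, 2196 with the block, 487 without those numbered 2 and 0 to 387 without single libraries), in RCAM age (729, against 1551 by DESeq2, 336 with the block and 451 to 629), in young RCAM against capsule macrophages (2030, against 3204 by DESeq2, 1059 with the block and 1231 to 2107) and in the interaction (952, against 2304 by DESeq2, 2204 in the fit of all 22 and 282 to 1594). Without scaling, higher and lower calls became 3101 and 5742 in capsule against kidney macrophages (4281 and 4420 with it), 4348 and 7918 in aged RCAM against tissue (5664 and 6767), 995 and 1080 in young RCAM against capsule macrophages (1216 and 814) and 460 and 563 in the interaction (589 and 363). The median of all genes then lay at 0.15, -0.24, -0.40, -0.48 and -0.07 in tissue age, capsule against kidney macrophages, young and aged RCAM against tissue and the interaction. With RLE scaling it lay at -0.25 in young RCAM against tissue. Libraries with the same number correlated at 0.099 to 0.353 between aged and young tissue, against -0.306 to 0.038 for different numbers. Elsewhere those with the same number correlated at -0.108 to 0.057. The labels name no pairs, so the numbers were not taken as pairs. The 39 genes called in tissue age, against 2196 with the block, depend on that choice. In tissue every library correlated best with its own number, a hint from the data and not the design.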
